A study of Mus musculus with 16 samples.

Results

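The genes described here are 10 members of the NF-kB inflammatory programme, namely the cytokine genes Il6, Il1a, Il1b, Tnf and Lif, the subunit gene Nfkb1, and the feedback genes Nfkbia, Nfkbiz, Tnfaip3 and Bcl3. They were taken by symbol from the 38003 genes of a deposited single-cell RNA count matrix of mouse lung, and all 10 were found. The rule uses gene names and no measured value, but the members were chosen with earlier results of these data known. NF-kB is a family of transcription factors that inhibitor proteins hold in the cytoplasm until a receptor for a cytokine or a microbial product triggers degradation of the inhibitor. Freed NF-kB switches on cytokine genes and also the genes of its own brakes, which makes the pathway self-limiting. In lung, macrophages and neutrophils are known sources of interleukin-1 and tumour necrosis factor, and fibroblasts are a known source of interleukin-6.

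Live lung cells sorted by dye exclusion came from 6 groups. The first pair is 6-OHDA with pancreatic ductal adenocarcinoma (PDAC) cells seeded (6-OHDA-PDAC, 2 samples) and 6-OHDA without them (6-OHDA, 3 samples). The other pairs are BIBO3304 with PDAC cells (BIBO3304-PDAC, 2 samples) and without (BIBO3304, 3 samples), and vehicle with PDAC cells (vehicle-PDAC, 2 samples) and without (vehicle, 3 samples). 6-OHDA (6-hydroxydopamine) is a neurotoxin that ablates sympathetic nerve endings, and BIBO3304 blocks NPY1R, a receptor of the sympathetic transmitter neuropeptide Y; the study asks how these nerves bear on the seeding of pancreatic cancer cells in lung. The deposited cell table names the treatments 6OHDA, BIBO and control and the seeding state IV or nonIV; IV was read as seeded and control as vehicle. The sources used here give no strain, sex, age, dosing or PDAC line. Nor do they say that each numbered sample is its own mouse, and p-values then speak of the spread among these samples, which may be technical.

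The promoters that hold a match to an NF-kB binding motif are shown first, since these genes are classed by that factor. The RefSeq promoter table (mouse build GRCm38.p6, 250 bases before to 50 bases after the start) held 9 promoters of 8 members, and Nfkb1 and Nfkbiz are named only. The motif searched, on both strands, was GGG, any 2 bases and TTTCC, which on the opposite strand reads GGAAA, any 2 bases and CCC. It occurs in 3 of these 9 promoters, and in 535 of all 32851 promoters of the table, or 1.63%. The promoter windows lie at chr5:30012864-30013163 (plus strand) for Il6, at chr12:55492598-55492897 (minus strand) for Nfkbia and at chr10:19015361-19015660 (minus strand) for Tnfaip3. The sequences run 5′ to 3′ on the gene's strand, with the match in capitals.
Il6: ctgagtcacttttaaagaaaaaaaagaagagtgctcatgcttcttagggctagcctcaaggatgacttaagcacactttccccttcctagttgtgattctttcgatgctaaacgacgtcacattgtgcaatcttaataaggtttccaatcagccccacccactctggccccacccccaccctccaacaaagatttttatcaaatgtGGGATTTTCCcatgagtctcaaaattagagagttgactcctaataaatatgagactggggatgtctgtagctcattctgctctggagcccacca
Nfkbia: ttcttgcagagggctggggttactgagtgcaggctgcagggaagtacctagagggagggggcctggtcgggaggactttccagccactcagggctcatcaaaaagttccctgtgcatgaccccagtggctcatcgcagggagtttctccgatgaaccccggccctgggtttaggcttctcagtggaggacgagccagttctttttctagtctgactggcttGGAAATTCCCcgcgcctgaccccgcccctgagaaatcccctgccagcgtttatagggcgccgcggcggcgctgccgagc
Tnfaip3: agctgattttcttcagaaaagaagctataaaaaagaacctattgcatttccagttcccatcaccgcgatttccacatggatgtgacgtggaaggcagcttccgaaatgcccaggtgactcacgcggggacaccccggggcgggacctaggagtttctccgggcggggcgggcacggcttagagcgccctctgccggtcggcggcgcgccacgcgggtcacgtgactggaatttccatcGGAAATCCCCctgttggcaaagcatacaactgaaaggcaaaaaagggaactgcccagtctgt
The Il6 match, GGGATTTTCC, reads along the gene's strand and its first base lies 44 bases before the start. The Nfkbia match, GGAAATTCCC, and the Tnfaip3 match, GGAAATCCCC, are the motif on the other strand, 29 and 12 bases before the start. The other 6 promoters, those of Il1a, Il1b, Tnf, Lif, Bcl3 and a second start of Tnfaip3, hold no match to these letters. A match of letters is a description and does not show binding.

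The matrix held 80449 cells of 22 annotated types in 15 samples, with 10003796 to 32580698 transcripts per sample and a median of 2307 transcripts per cell. The median per cell ran from 1623 in BIBO3304-PDAC 2 to 4846.5 in BIBO3304 2, so BIBO3304 2 stands apart in depth per cell; the highest total was in vehicle-PDAC 1. Annotated cancer cells numbered 33 to 75 in 5 of the 6 PDAC samples, but vehicle-PDAC 2 held no such cell among its 9157. Vehicle samples held 1 or 2 each, and the 6-OHDA and BIBO3304 samples without PDAC cells had no such cell. The values that use vehicle-PDAC are therefore given a second time without vehicle-PDAC 2 where it changes a call, and for the tests in interstitial macrophages. Among the 642 member tests that use vehicle-PDAC, 2 are called with all samples. Without vehicle-PDAC 2 the group kept 1 sample, and 120 of the 642 log2 values changed sign. Well barcodes recur between the 16 sublibraries, with 18900 cells sharing one with a cell of another sublibrary, and cells were kept apart by sublibrary. For 20 of 22 fixed marker lists the summed level was highest in the matching annotated type. Only the 20 types with enough samples were compared. Alveolar type 1 and club cells were not among them, so the lists of these 2 types could not match and say nothing about their annotation.

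Levels are given as CPM, transcripts of the gene per 1000000 transcripts of one cell type in one sample, averaged over the samples with at least 20 cells of that type. They compare cell types for one gene and not one gene with another, since CPM is not scaled by gene length. Among the cytokines, Il1b, which encodes the secreted interleukin-1 beta, was highest in neutrophils at 4783 ± 1505 CPM (SD, n = 15). Its values there were 2415 CPM in the lowest sample, 5102 in the median sample and 7138 in the highest, and the next types, interstitial macrophages at 560.5 ± 181 CPM (SD, n = 15) and monocytes at 436 ± 86.9 CPM (SD, n = 15), were lower in all 15 samples. Neutrophils held 26.2% of all Il1b transcripts but 0.915% of all transcripts. On the log2(CPM + 1) scale, Il1b in neutrophils exceeded interstitial macrophages by 3.10 ± 0.57 (SD), with an adjusted p of 0.0002035 by a two-sided exact sign-flip permutation test over the 15 samples. That is the smallest adjusted p these tests gave, and the raw value behind it, 6.104e-05, is the smallest that 15 samples allow. This test was run for all 10 members, with Benjamini-Hochberg adjustment over the 10.

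Il1a, the gene of interleukin-1 alpha, and Tnf, the gene of tumour necrosis factor, were both highest in alveolar macrophages. Il1a had 82.4 CPM in the lowest sample, 209.8 in the median sample and 431 in the highest, with a mean of 213 ± 84.1 CPM (SD, n = 15). Interstitial macrophages followed at 71.8 ± 31.4 CPM (SD, n = 15) and dendritic cells at 64 ± 111 CPM (SD, n = 15). Alveolar macrophages exceeded interstitial macrophages in all 15 samples, by 1.59 ± 0.71 (SD) on the log2 scale (exact sign-flip permutation test, adjusted p = 0.0002035). Tnf had 91.5 CPM in the lowest sample, 140.3 in the median sample and 184 in the highest, with a mean of 137 ± 27.8 CPM (SD, n = 15), against 60.6 ± 29.1 CPM (SD, n = 15) in dendritic cells and 42.9 ± 17.4 CPM (SD, n = 15) in interstitial macrophages. The lead over dendritic cells held in all 15 samples, by 1.29 ± 0.73 (SD) on the log2 scale (exact sign-flip permutation test, adjusted p = 0.0002035). Alveolar macrophages held 91.8% of Il1a and 87.6% of Tnf transcripts, beside 35.7% of all transcripts, so both genes were concentrated in this type.

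Il6, a cytokine that signals through STAT3, was highest in fibroblasts. Lif, a cytokine of the same receptor family, was highest in cancer cells, with fibroblasts next. Il6 had 137 CPM in the lowest sample, 221 in the median sample and 392 in the highest in adventitial fibroblasts, with a mean of 249 ± 78.4 CPM (SD, n = 15). Alveolar fibroblasts followed at 173 ± 41.9 CPM (SD, n = 15) and peribronchial fibroblasts at 92.1 ± 46.3 CPM (SD, n = 15). Adventitial exceeded alveolar fibroblasts in 13 of 15 samples, by 0.50 ± 0.46 (SD) on the log2 scale (exact sign-flip permutation test, adjusted p = 0.00356). By number of transcripts the order turned round, since alveolar fibroblasts held 60.6% and adventitial fibroblasts 26.1% of Il6 transcripts. Lif was the sparsest member, with 2085 transcripts in 1484 cells. It averaged 20.4 ± 8.73 CPM (SD, n = 5) in cancer cells, 11.3 ± 3.28 CPM (SD, n = 15) in adventitial and 11.1 ± 6.58 CPM (SD, n = 15) in alveolar fibroblasts. The fibroblast types were not separated for Lif (exact sign-flip permutation test, adjusted p = 0.657), and cancer cells, with 5 samples, were left out of the test.

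Nfkb1, which encodes the precursor of a DNA-binding NF-kB subunit, was spread over many types. It averaged 1174 ± 349 CPM (SD, n = 15) in dendritic cells, 1165 ± 413 CPM (SD, n = 15) in peribronchial fibroblasts and 1055 ± 400.1 CPM (SD, n = 15) in interstitial macrophages. Dendritic cells and peribronchial fibroblasts differed by 0.04 ± 0.42 (SD) on the log2 scale, with dendritic cells higher in 8 of 15 samples (exact sign-flip permutation test, adjusted p = 0.711). On TMM-scaled CPM dendritic cells were higher in 13 of 15, by 0.38 (exact sign-flip permutation test, adjusted p = 0.0179).

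Of the feedback genes, Nfkbia, Nfkbiz and Bcl3 had their highest mean level in neutrophils. Nfkbia encodes the main cytoplasmic inhibitor, IκBα, and averaged 912 ± 255 CPM (SD, n = 15) in neutrophils, 735 ± 233 CPM (SD, n = 15) in dendritic cells and 694 ± 102 CPM (SD, n = 15) in large-vessel endothelial cells. Nfkbiz encodes the nuclear inhibitor-family protein IκBζ, a coactivator of late NF-kB targets such as Il6. It averaged 1318 ± 479.8 CPM (SD, n = 15) in neutrophils, 882 ± 261 CPM (SD, n = 15) in peribronchial and 861 ± 166 CPM (SD, n = 15) in alveolar fibroblasts. Both leads over the second type held in 12 of 15 samples, by 0.33 ± 0.31 (SD) for Nfkbia (adjusted p = 0.00356) and 0.54 ± 0.50 (SD) for Nfkbiz (adjusted p = 0.00214) on the log2 scale by the exact sign-flip permutation test. On TMM-scaled CPM the lead of Nfkbia was 0.20, in 10 of 15 samples, and was not separated (exact sign-flip permutation test, adjusted p = 0.114). Bcl3, a nuclear relative of the inhibitors that binds NF-kB dimers on DNA, averaged 157 ± 65.8 CPM (SD, n = 15) in neutrophils, 124 ± 30.9 CPM (SD, n = 15) in large-vessel endothelial cells and 116 ± 42.2 CPM (SD, n = 15) in peribronchial fibroblasts. Its first place was not separated from the second (exact sign-flip permutation test, adjusted p = 0.657). Tnfaip3, which encodes the ubiquitin-editing enzyme A20 that damps receptor signalling, was highest in lymphocytes. It averaged 782 ± 289 CPM (SD, n = 15) in natural killer cells, 700.2 ± 224 CPM (SD, n = 15) in T cells and 639 ± 209 CPM (SD, n = 15) in neutrophils. Natural killer cells exceeded T cells by 0.14 ± 0.21 (SD) on the log2 scale in 12 of 15 samples (exact sign-flip permutation test, adjusted p = 0.0325), but on TMM-scaled CPM the order turned round (-0.15, adjusted p = 0.0521).

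**Figure D1:**
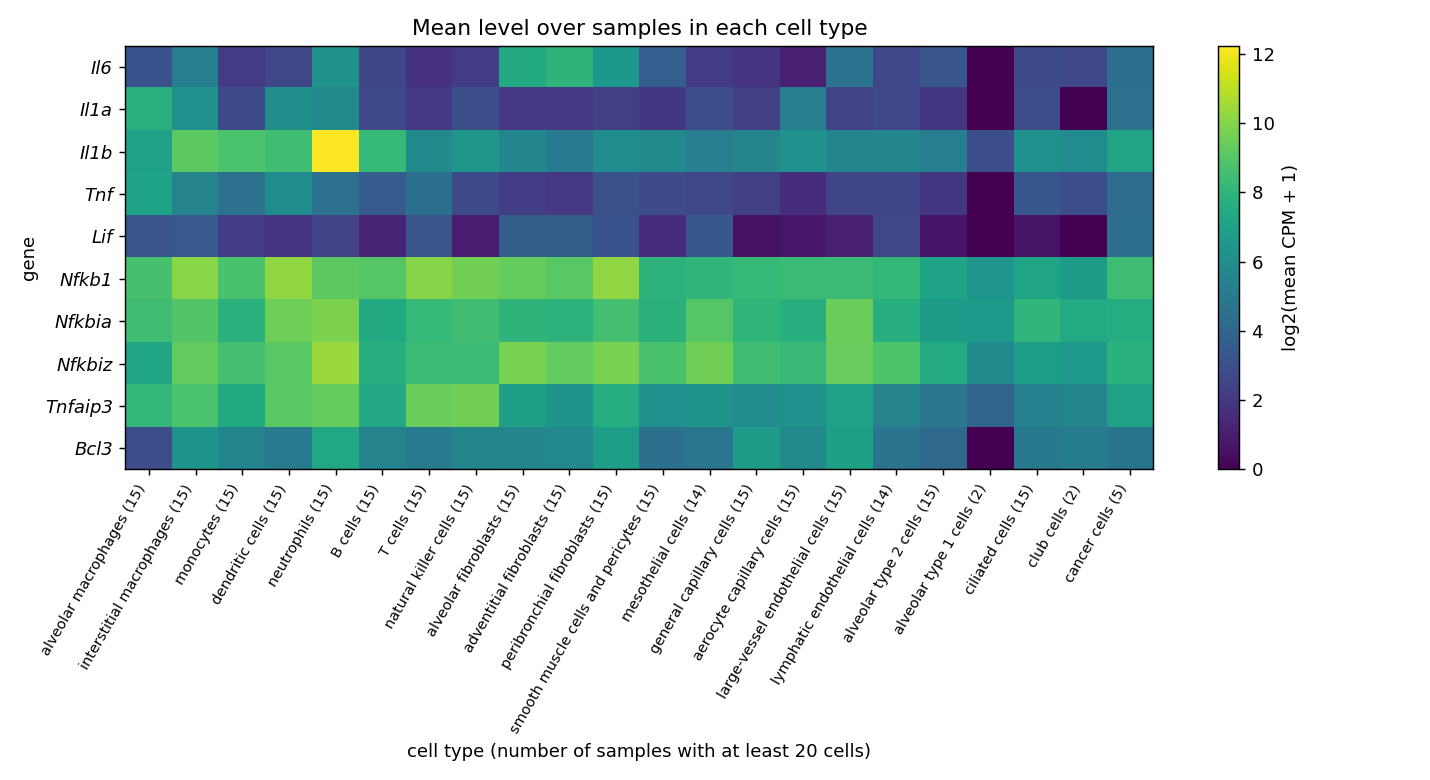
Mean level of each of the 10 genes in each cell type, as log2(mean CPM + 1) over samples, with the number of samples of at least 20 cells in brackets. Colours compare cell types within a gene's row: Il1b peaks in neutrophils, Il1a and Tnf in alveolar macrophages, and Il6 in fibroblasts.

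Across the 20 cell types with enough samples, the genes whose pattern was most like a member's were found by Pearson's correlation of log2(mean CPM + 1) among 10829 genes. The types share libraries and depth, so each r is a description over 20 types. Il1b was most like Lrrc25 (r = 0.958), AU019990 (0.957) and Ptafr (0.956), Tnf like Bcl2a1d (0.910), Baz1a (0.905) and M6pr (0.905), and Il1a like Tbxas1 (0.882), Ckap2l (0.875) and Bcl2a1a (0.861). Il6 was most like D430041D05Rik (0.820), Lpar1 (0.820) and Sod2 (0.813), a superoxide dismutase. Lif, with few transcripts, was most like Dtx4 (0.799), Fmn1 (0.767) and Hspa5 (0.764). Nfkb1 was most like Relb (0.863), the gene of another NF-kB subunit, Usp16 (0.850) and Ptger4 (0.831), and Tnfaip3 like Galnt7 (0.908), Selplg (0.897) and Pim1 (0.888). Nfkbia was most like Hivep1 (0.726), Spag9 (0.714) and Dhrs9 (0.711), Nfkbiz like Coq10b (0.876), Ccnl1 (0.851) and Zyx (0.833), and Bcl3 like Arid5a (0.820), Csrnp1 (0.778) and Ppp1r15a (0.771). Between members, r was 0.831 for Nfkb1 and Tnfaip3, 0.741 for Il1a and Tnf, and -0.273 for Tnf and Bcl3.

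Changes between groups were tested on counts summed per sample and cell type, with the quasi-likelihood test of edgeR over all genes and Benjamini-Hochberg adjustment within each type and comparison. A change is called here at an adjusted p under 0.05. Counts of tests at an unadjusted p under 0.05 are given without the share of all genes at that level. The cell types also share samples, so such counts do not set the members apart from other genes. Fold changes are log2 values after TMM scaling, so they need not equal the ratio of the CPM values. A sum over cells cannot tell fewer expressing cells from less RNA per expressing cell. The members entered 132 tests of a gene in a type where 19 types could be fitted, and 123 where 17 could; Nfkb1, Nfkbia, Nfkbiz and Il1b passed the filter on low counts in all 19, Tnfaip3 in 17, Bcl3 in 15, Il6 in 8, Il1a and Tnf in 6 and Lif in 4.

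In interstitial macrophages of 6-OHDA lungs, Il6 and all 4 feedback genes were lower where PDAC cells had been seeded. Il6 had 10.0 and 9.57 CPM in 6-OHDA-PDAC samples, against 35.6, 70.1 and 77.4 CPM in 6-OHDA samples. The groups did not overlap, and Il6 fell by 2.57 ± 0.43 (SE) on the log2 scale, with an adjusted p of 0.000631. Few transcripts stand behind these values, namely 21 and 12 in 6-OHDA-PDAC samples, in 514 and 341 cells, and 12, 39 and 16 in 6-OHDA samples, in 124, 196 and 78 cells. The call held without each sample in turn and in 8 further alternatives.

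Bcl3 had 30.1 and 25.5 CPM in 6-OHDA-PDAC samples, against 104, 55.7 and 77.4 CPM in 6-OHDA samples. Both 6-OHDA-PDAC samples lay below every 6-OHDA sample (log2 change -1.43 ± 0.31 (SE), adjusted p = 0.0056). Tnfaip3 had 166 and 292 CPM in 6-OHDA-PDAC samples, against 436, 419 and 571 CPM in 6-OHDA samples. The groups did not overlap, although the 6-OHDA-PDAC samples differed from each other (log2 change -1.08 ± 0.24 (SE), adjusted p = 0.00614). Nfkbiz had 277 and 350.1 CPM in 6-OHDA-PDAC samples, against 785, 579 and 687 CPM in 6-OHDA samples. Again every 6-OHDA-PDAC value was lower (log2 change -1.13 ± 0.26 (SE), adjusted p = 0.00827). Nfkbia had 297 and 348 CPM in 6-OHDA-PDAC samples, against 450.4, 581 and 571 CPM in 6-OHDA samples, without overlap, and the smallest called change of these genes (log2 change -0.73 ± 0.22 (SE), adjusted p = 0.038).

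These calls were made with edgeR, and they made up 5 of the 123 member tests of PDAC cells against none under 6-OHDA, all 5 in interstitial macrophages. Over all genes and types 0.729% of tests were called, and in interstitial macrophages 6.88% of genes were called lower. The median log2 change of the 10 members in interstitial macrophages was -0.96, and that of all genes there 0.01. The other members did not pass: Il1b, whose groups did not overlap at 733 and 773 CPM in 6-OHDA-PDAC samples, against 569, 451 and 387 CPM in 6-OHDA samples, had a log2 change of 0.68 ± 0.29 (SE), adjusted p = 0.163. Il1a (-0.84, adjusted p = 0.158), Nfkb1 (-0.36, 0.525), Tnf (-0.43, 0.608) and Lif (-1.65, 0.339) had lower values without passing in edgeR. With 1 sample left out, its group's remaining sample was assumed to vary like the other groups. Then Bcl3 was not called without 6-OHDA-PDAC 2 (adjusted p = 0.124), Tnfaip3 without 6-OHDA-PDAC 1 (0.164), Nfkbiz without either of them (0.102 and 0.108), and Nfkbia without either of them or without 6-OHDA 2 or 3 (0.0936 to 0.295). Without TMM scaling, Tnfaip3 (0.103), Nfkbiz (0.0838) and Nfkbia (0.302) were not called, and Nfkbia was also lost with no filter on low counts (0.340), with the sample number as a block (0.0708) and without the highest cell of each sample (0.0565).

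**Figure D2:**
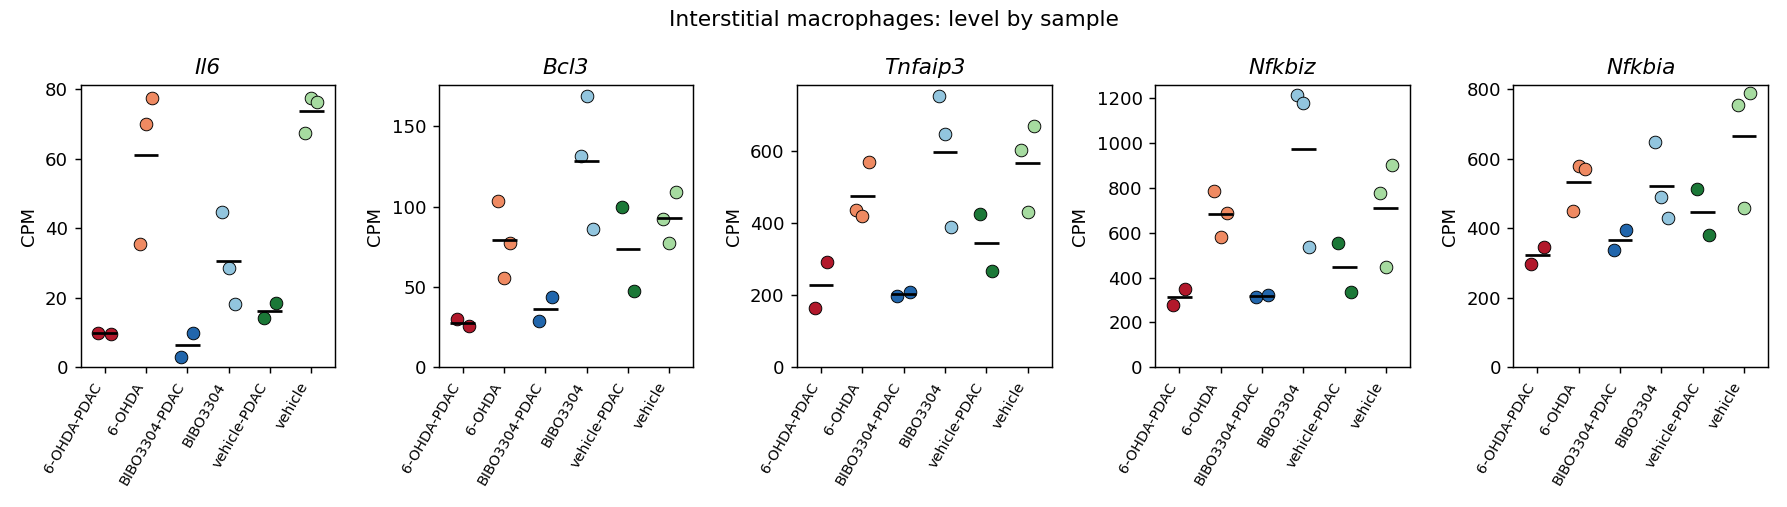
Level of Il6 and the 4 feedback genes in interstitial macrophages, in CPM, with 1 point per sample and a line at the group mean. For each gene, both 6-OHDA-PDAC and both BIBO3304-PDAC samples lie below every sample of the same treatment without PDAC cells. Nfkbia was not called under BIBO3304.

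Under BIBO3304 the same comparison called Tnfaip3, Nfkbiz, Bcl3, Il6 and Il1a lower in interstitial macrophages. Tnfaip3 had 197 and 209 CPM in BIBO3304-PDAC samples, against 755, 648 and 389 CPM in BIBO3304 samples (log2 change -1.56 ± 0.24 (SE), adjusted p = 0.000231). Nfkbiz had 315 and 322 CPM in BIBO3304-PDAC samples, against 1210.1, 1174 and 535 CPM in BIBO3304 samples (log2 change -1.60 ± 0.27 (SE), adjusted p = 0.000393). Bcl3 had 29 and 44 CPM in BIBO3304-PDAC samples, against 131, 169 and 85.9 CPM in BIBO3304 samples (log2 change -1.82 ± 0.31 (SE), adjusted p = 0.00045). For each of the 3 genes the BIBO3304-PDAC samples lay close together and below all BIBO3304 samples, and the calls held without each sample in turn and in 8 further alternatives. Il6 had 2.90 and 10.0 CPM in BIBO3304-PDAC samples, against 44.7, 28.5 and 18.3 CPM in BIBO3304 samples (log2 change -2.12 ± 0.53 (SE), adjusted p = 0.00894), resting on 2 and 10 transcripts in BIBO3304-PDAC and 16, 11 and 10 in BIBO3304 samples. Il1a had 21.7 and 35 CPM in BIBO3304-PDAC samples, against 92.2, 72.6 and 63.9 CPM in BIBO3304 samples (log2 change -1.44 ± 0.40 (SE), adjusted p = 0.017). Neither gene's groups overlapped, but Il6 was not called without BIBO3304-PDAC 1 (-1.70, adjusted p = 0.0740), and Il1a was not called without BIBO3304-PDAC 1 (0.105), without BIBO3304-PDAC 2 (0.102), or without the highest cell of each sample (-1.06, 0.101). Nfkbia had 338 and 395 CPM in BIBO3304-PDAC samples, against 648, 490.0 and 429 CPM in BIBO3304 samples and did not pass in edgeR (log2 change -0.54 ± 0.22 (SE), adjusted p = 0.0879). These 5 calls stand beside 11.2% of all genes called lower in this type, and the median log2 change was -1.07 over the members and 0.03 over all genes. Across types, 16 of 132 member tests were called, 6 higher and 10 lower, where 4.25% of all tests were.

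Under vehicle the members had no call, against 0.00176% of all tests called, with 16 of 132 at an unadjusted p under 0.05 and 1 call by DESeq2 (Nfkbiz in alveolar macrophages, 0.65, adjusted p = 0.0488). Il6 in interstitial macrophages had the smallest p, with 14.1 and 18.5 CPM in vehicle-PDAC samples, against 67.5, 77.5 and 76.4 CPM in vehicle samples. The groups did not overlap and the log2 change was -1.98 ± 0.42 (SE), adjusted p = 0.414 by edgeR, with an unadjusted p of 9.79e-05. The Il6 difference under vehicle thus had the sign and nearly the size seen under both drugs, and without vehicle-PDAC 2 it was called (-2.57, adjusted p = 0.0206). The feedback genes differed less there by edgeR: Tnfaip3 -0.58 (adjusted p = 0.586), Nfkbiz -0.52 (0.632), Nfkbia -0.40 (0.66) and Bcl3 -0.24 (0.874). Without vehicle-PDAC 2 edgeR gave Tnfaip3 -0.59 (0.399), Nfkbiz -0.51 (0.534), Nfkbia -0.54 (0.399) and Bcl3 -0.079 (0.955). The vehicle-PDAC samples lay apart from each other for the feedback genes, with Bcl3 at 99.9 and 47.7 CPM in vehicle-PDAC samples, against 92.5, 77.5 and 109 CPM in vehicle samples. The comparisons under 6-OHDA, BIBO3304 and vehicle share no samples.

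**Figure D3:**
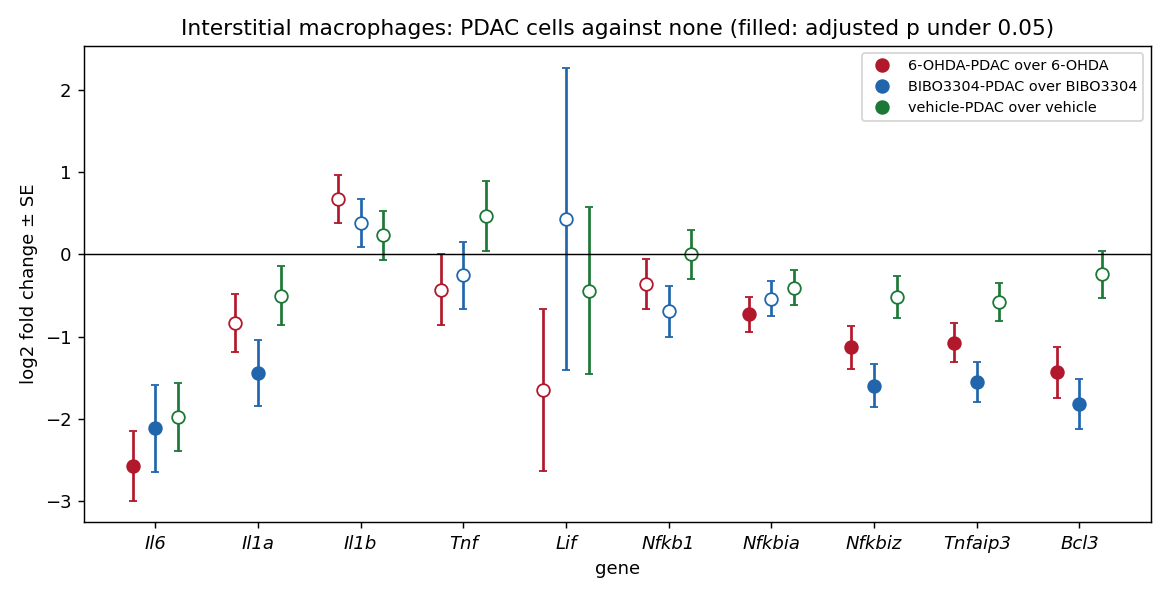
Log2 fold change with its standard error for each of the 10 genes in interstitial macrophages, for PDAC cells against none under 6-OHDA, BIBO3304 and vehicle; filled points have an adjusted p under 0.05. Il6 lies near or below -2 in all 3 comparisons, while Bcl3, Tnfaip3 and Nfkbiz lie lower under both drugs than under vehicle.

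Whether a drug changed the response was tested by the interaction. In interstitial macrophages the difference for Il6 was -0.59 for 6-OHDA (edgeR adjusted p = 0.896) and -0.13 for BIBO3304 (0.951). For Bcl3 it was -1.19 ± 0.42 (SE), adjusted p = 0.384, for 6-OHDA, and -1.58 ± 0.42 (SE), adjusted p = 0.0707, for BIBO3304, in edgeR. Nfkbiz (-1.08, adjusted p = 0.15) and Tnfaip3 (-0.98, 0.155) also missed the threshold for BIBO3304 in edgeR, so a difference between treated and vehicle lungs was not shown for these genes. Without vehicle-PDAC 2, edgeR called Bcl3 in the BIBO3304 interaction (-1.74, adjusted p = 0.0427) but not Nfkbiz (-1.08, 0.172) or Tnfaip3 (-0.96, 0.196). The Bcl3 value for 6-OHDA was then -1.34 (0.505), and the Il6 values were 0.0033 (0.999) for 6-OHDA and 0.46 (0.829) for BIBO3304, so those of Il6 changed sign. In the direct comparison of 6-OHDA-PDAC with vehicle-PDAC samples, Bcl3 in interstitial macrophages was the single call of 123 member tests, where 0.405% of all tests were called, and 3.2% of genes in this type were called lower. Bcl3 had 30.1 and 25.5 CPM in 6-OHDA-PDAC samples, against 99.9 and 47.7 CPM in vehicle-PDAC samples. The groups did not overlap (log2 change -1.59 ± 0.31 (SE), adjusted p = 0.00409, edgeR), and the call held without vehicle-PDAC 2 (-1.74, 0.0101) but not without 6-OHDA-PDAC 2 (-1.35, 0.154) or without TMM scaling (-1.39, 0.106). DESeq2 called Nfkbia (-0.79, 0.0072) and Tnfaip3 (-0.92, 0.00962) in this type as well, which edgeR put at -0.76 (0.0775) and -0.89 (0.0507), and without vehicle-PDAC 2 at -0.61 (0.469) and -0.86 (0.246).

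Interstitial macrophages took a larger share of cells in every PDAC sample than in any sample of the same treatment without PDAC cells. They made up 13% and 9.75% of cells in 6-OHDA-PDAC samples and 3.13%, 4.73% and 2.22% in 6-OHDA samples, 3.92% and 9.58% in BIBO3304-PDAC and 2.44%, 1.57% and 2.42% in BIBO3304 samples, and 3.86% and 3.18% in vehicle-PDAC and 2.27%, 2.99% and 2.11% in vehicle samples. The summed level of their own 6 markers, all 6 detected, was 706 to 922 CPM in 6-OHDA-PDAC and 1505 to 1815 CPM in 6-OHDA samples, and 700.3 to 809.5 CPM in BIBO3304-PDAC and 1861 to 2532 CPM in BIBO3304 samples. Without a drug it was 979.8 to 1125 CPM in vehicle-PDAC and 1174 to 1967 CPM in vehicle samples. The 9 alveolar macrophage markers, all 9 detected, summed to 546 to 571 CPM in 6-OHDA-PDAC and 1379 to 1985 CPM in 6-OHDA samples, and to 935 to 1156 CPM in BIBO3304-PDAC and 2455 to 4866 CPM in BIBO3304 samples. Under both drugs these sums were lower with PDAC cells, without overlap, as the feedback genes were. The interstitial macrophage sum was also lower in vehicle-PDAC than in vehicle samples, without overlap, so its fall was not particular to the drugs. The 6 monocyte markers differed less, at 479 to 494 CPM in 6-OHDA-PDAC and 498 to 561 CPM in 6-OHDA samples and, with overlap, 362 to 578 CPM in BIBO3304-PDAC and 259 to 467 CPM in BIBO3304 samples. Adventitial fibroblasts, the type highest in Il6, had marker sums in these macrophages of 20.6 to 27.9 CPM in 6-OHDA-PDAC (6 of 6 detected) and 43.6 to 65.2 CPM in 6-OHDA samples (5 of 6, Ccl11 at 0). The part of these differences in the member changes was not tested.

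Outside interstitial macrophages, all 11 further calls of PDAC cells against none were under BIBO3304. Il1b was called higher in 3 types. Monocytes, where 9.04% of genes were called, had 440.4 and 602 CPM in BIBO3304-PDAC samples, against 336, 371 and 302 CPM in BIBO3304 samples (log2 change 0.91 ± 0.19 (SE), adjusted p = 0.00294, edgeR). The groups did not overlap, but the call was lost without BIBO3304-PDAC 2 (0.78) and without TMM scaling (0.63, edgeR adjusted p = 0.241). Leaving out TMM moved the log2 changes of the members in monocytes by a median of -0.32. Natural killer cells, where 0.868% of genes were called, had 114 and 279 CPM in BIBO3304-PDAC samples, against 38.8, 0 and 39.6 CPM in BIBO3304 samples (log2 change 3.24 ± 0.72 (SE), adjusted p = 0.0274, edgeR), from 12 and 50 transcripts in BIBO3304-PDAC and 7, 0 and 15 in BIBO3304 samples. Alveolar type 2 cells, where 4.99% of genes were called, had 22.9 and 131 CPM in BIBO3304-PDAC samples, against 14.5, 4.74 and 17.5 CPM in BIBO3304 samples (log2 change 2.52 ± 0.56 (SE), adjusted p = 0.0132, edgeR). In both types BIBO3304-PDAC 2 was the highest and BIBO3304 2 the lowest of these 5 samples. Without BIBO3304-PDAC 2 the calls were lost in natural killer (2.39, 0.715) and alveolar type 2 cells (1.17, 0.591), and without BIBO3304 2 likewise (2.55, 0.186, and 2.02, 0.0565). In natural killer cells the call was also lost without BIBO3304 1 (0.0599) or 3 (0.0566) and with the sample number as a block (0.135), and DESeq2 gave it no adjusted p.

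Over all 19 types Il1b had a positive log2 change in 17, with a median of 1.99 and 14 at an unadjusted p under 0.05; neutrophils, where it is highest, had 2415 and 3266 CPM in BIBO3304-PDAC samples, against 7138, 4829 and 5230.5 CPM in BIBO3304 samples and a log2 change of -0.69 ± 0.30 (SE), adjusted p = 0.14 (edgeR). The 6 neutrophil markers were summed in types outside the myeloid lineage. In alveolar type 2 cells their sums were 17.7 and 74.4 CPM in BIBO3304-PDAC samples, against 7.97, 4.74 and 16.6 CPM in BIBO3304 samples. The median per cell was 1562.5 transcripts in BIBO3304-PDAC 2, the sample with most Il1b there, and 8970 in BIBO3304 2, the one with least. In alveolar fibroblasts Il1b had 31.3 and 127 CPM in BIBO3304-PDAC samples, against 22.5, 5.74 and 25.5 CPM in BIBO3304 samples, and the neutrophil markers summed to 22.1 and 77.7 CPM in BIBO3304-PDAC samples, against 23.3, 4.31 and 33.3 CPM in BIBO3304 samples. In natural killer cells 4 of 6 neutrophil markers were detected in BIBO3304-PDAC samples, with Cxcr2 and Mmp9 at 0, and 3 of 6 in BIBO3304 samples, with S100a8, Retnlg and Mmp9 at 0. Their sums there were 85.8 and 55.7 CPM in BIBO3304-PDAC samples, against 38.8, 0 and 15.8 CPM in BIBO3304 samples. In B cells Il1b had 247 and 512 CPM in BIBO3304-PDAC samples, against 166, 12 and 177 CPM in BIBO3304 samples, and the markers summed to 93.7 and 211 CPM in BIBO3304-PDAC samples, against 111, 0 and 134 CPM in BIBO3304 samples. The sample lowest in Il1b was thus lowest in the markers in each of these 4 types, and in alveolar type 2 cells all 5 samples stood in 1 order by both. In the other types the orders differed: BIBO3304-PDAC 1 exceeded BIBO3304 1 and 3 in Il1b and not in the markers of B cells and alveolar fibroblasts, and BIBO3304-PDAC 2 had more Il1b and a lower marker sum than BIBO3304-PDAC 1 in natural killer cells. Il1b in B cells had 40.2 and 385 CPM in vehicle-PDAC samples, against 297, 385 and 471 CPM in vehicle samples. The part of neutrophil RNA and of depth in the Il1b differences was not tested.

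**Figure D4:**
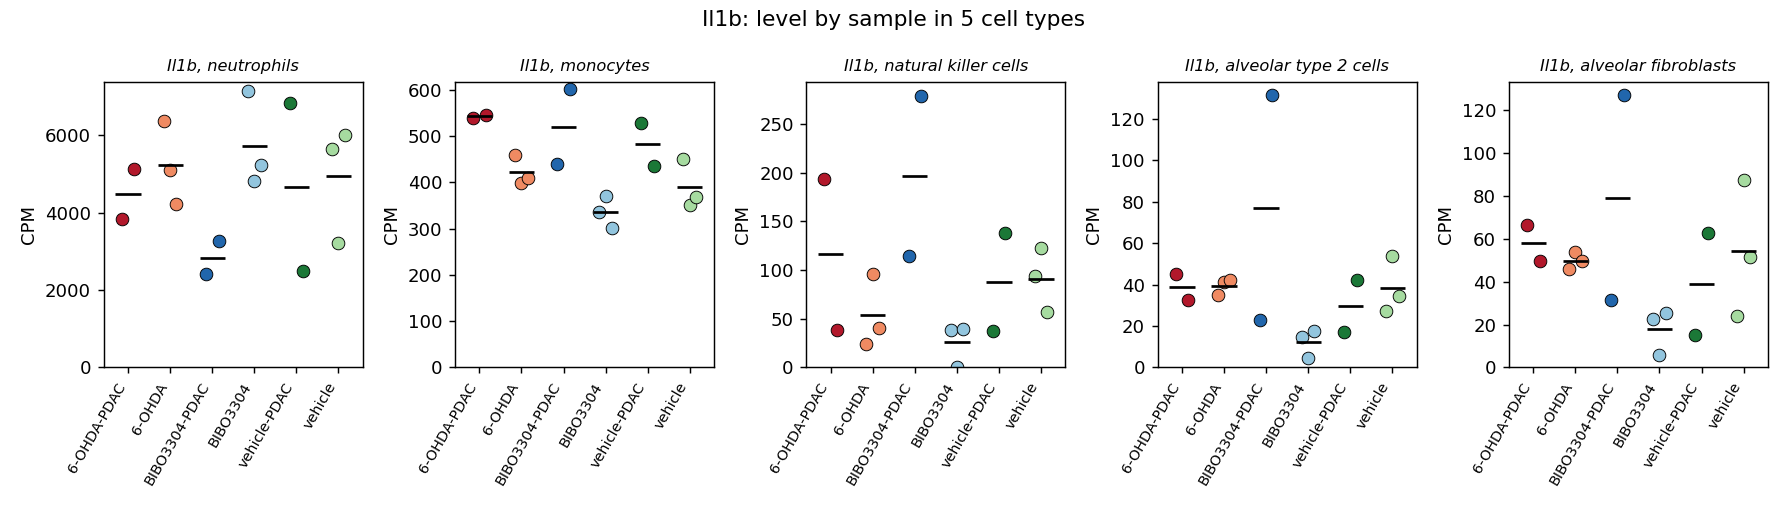
Il1b level by sample in neutrophils, monocytes, natural killer cells, alveolar type 2 cells and alveolar fibroblasts, in CPM on separate axes, with a line at the group mean. BIBO3304-PDAC 2 is the higher BIBO3304-PDAC sample in each panel, neutrophils included. In natural killer cells, alveolar type 2 cells and alveolar fibroblasts BIBO3304 2 is the lowest of its group.

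Nfkbia was called higher in 2 structural types with PDAC cells under BIBO3304. In alveolar fibroblasts, where 9.95% of genes were called, it had 265 and 365 CPM in BIBO3304-PDAC samples, against 210.0, 147 and 171 CPM in BIBO3304 samples (log2 change 0.83 ± 0.17 (SE), adjusted p = 0.00792, edgeR). The groups did not overlap, and the call was lost without BIBO3304-PDAC 2 (0.72, 0.133). Vehicle samples, at 247, 284 and 295 CPM, lay above all BIBO3304 samples. In general capillary cells, where 4.49% of genes were called, it had 270.3 and 293 CPM in BIBO3304-PDAC samples, against 197, 213 and 184 CPM in BIBO3304 samples (log2 change 0.52 ± 0.15 (SE), adjusted p = 0.0455, edgeR), a call lost without any 1 of the 5 samples (0.0725 to 0.372) and in 5 of 8 further alternatives.

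Dendritic cells, with 1.34% of genes called, had lower Il1a and Tnfaip3. Il1a had 17.8 and 8.23 CPM in BIBO3304-PDAC samples, against 459, 34.5 and 51.5 CPM in BIBO3304 samples (log2 change -3.43 ± 0.83 (SE), adjusted p = 0.0424, edgeR). BIBO3304 1 stood far above the rest, with 93 of its 126 Il1a transcripts in 1 cell, and the call was lost without it (-1.60, 0.181), without BIBO3304-PDAC 1 (0.109) or 2 (0.569), and without the highest cell of each sample (-2.30, 0.0741); DESeq2 gave it no adjusted p. Tnfaip3 had 378 and 288 CPM in BIBO3304-PDAC samples, against 820.3, 909.8 and 567 CPM in BIBO3304 samples (log2 change -1.09 ± 0.28 (SE), adjusted p = 0.049, edgeR), without overlap, but no fit that left out a sample called it (0.0622 to 0.639), nor did those without TMM scaling (0.0816) or without the highest cell (0.0613). Monocytes had lower Nfkbiz, at 223 and 279.6 CPM in BIBO3304-PDAC samples, against 631, 943 and 341 CPM in BIBO3304 samples (log2 change -1.01 ± 0.23 (SE), adjusted p = 0.00719, edgeR). That call was lost without BIBO3304 2 (-0.66, 0.0650) or without BIBO3304-PDAC 1 (0.0644) or 2 (0.105), and with only the groups compared (0.0503).

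Neutrophils, where 7.93% of genes were called, had lower Bcl3 and Nfkbiz and higher Il6. Bcl3 had 13.2 and 69.3 CPM in BIBO3304-PDAC samples, against 242, 227 and 149 CPM in BIBO3304 samples (log2 change -1.86 ± 0.49 (SE), adjusted p = 0.0203, edgeR), from 1 and 7 transcripts in 33 and 67 cells of BIBO3304-PDAC samples and 33, 44 and 32 transcripts in 87, 62 and 115 cells of BIBO3304 samples. Every BIBO3304-PDAC value lay below every BIBO3304 value, and the call was lost without BIBO3304 1 (0.0532) or BIBO3304-PDAC 1 (-1.33, 0.161) or 2 (-3.59, 0.0593), by DESeq2 (0.0529) and with only the groups compared (0.0627). Nfkbiz had 673 and 683 CPM in BIBO3304-PDAC samples, against 1979, 1733 and 1452 CPM in BIBO3304 samples (log2 change -1.01 ± 0.29 (SE), adjusted p = 0.0325, edgeR). The BIBO3304-PDAC samples were again the lower group without overlap, and the call was lost without BIBO3304 1 (0.0823) or 2 (0.0592) or BIBO3304-PDAC 1 (0.112) or 2 (0.192). Il6 had 383 and 19.8 CPM in BIBO3304-PDAC samples, against 14.7, 5.16 and 46.7 CPM in BIBO3304 samples, so the groups overlapped (log2 change 3.28 ± 0.92 (SE), adjusted p = 0.0297, edgeR). It rested on 29 transcripts in 7 of the 33 cells of BIBO3304-PDAC 1, without which the log2 change was -0.064 (0.985), and it was also lost without BIBO3304 1 (0.0815) or 2 (0.0904) and by DESeq2 (0.0966). The 6 neutrophil markers, all detected, summed to 1359 to 1603 CPM in BIBO3304-PDAC and 3605 to 4432 CPM in BIBO3304 samples. The alveolar macrophage list, with Ear2 at 0 in both groups, summed to 435 to 554 CPM in BIBO3304-PDAC and 129 to 304 CPM in BIBO3304 samples; its part in these changes was not tested.

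In the interaction of BIBO3304 with PDAC cells, Bcl3 in neutrophils was the single call of 132 member tests, where 0.413% of all tests and 1.32% of neutrophil tests were called. Bcl3 had 13.2 and 69.3 CPM in BIBO3304-PDAC and 205 and 147 CPM in vehicle-PDAC samples, and 242, 227 and 149 CPM in BIBO3304 and 122, 77.6 and 177 CPM in vehicle samples. With PDAC cells the treated samples were thus the lower ones without overlap, and without PDAC cells they overlapped the vehicle samples from above, a difference of -2.62 ± 0.61 (SE), adjusted p = 0.0367 (edgeR). The call held without vehicle-PDAC 2 (-2.54, 0.0359) but was lost without BIBO3304 1 or 2, BIBO3304-PDAC 1, vehicle 1 or 2 or vehicle-PDAC 1 (0.0639 to 0.140), without TMM scaling (-2.56, 0.0590), and with only the groups compared (-2.59, 0.0897). Without vehicle-PDAC 2, which left 1 sample in that group, further members passed in edgeR, and their log2 differences follow. Il1b had 3.54 to 5.45 in the types where it passed, which were some and not all of those other than neutrophils. Nfkbia had 2.05 in B cells. Nfkbiz had -1.72 in neutrophils and -1.04 in alveolar macrophages, where Il1a had -1.75 and Tnfaip3 -1.13. Bcl3 in interstitial macrophages passed as well. The share of all genes passing in that refit is not given here. With all samples, the next tests by p missed the threshold in edgeR: Nfkbiz in alveolar macrophages (-0.97, adjusted p = 0.0958), neutrophils (-1.35, 0.0776) and monocytes (-1.09, 0.107).

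**Figure D5:**
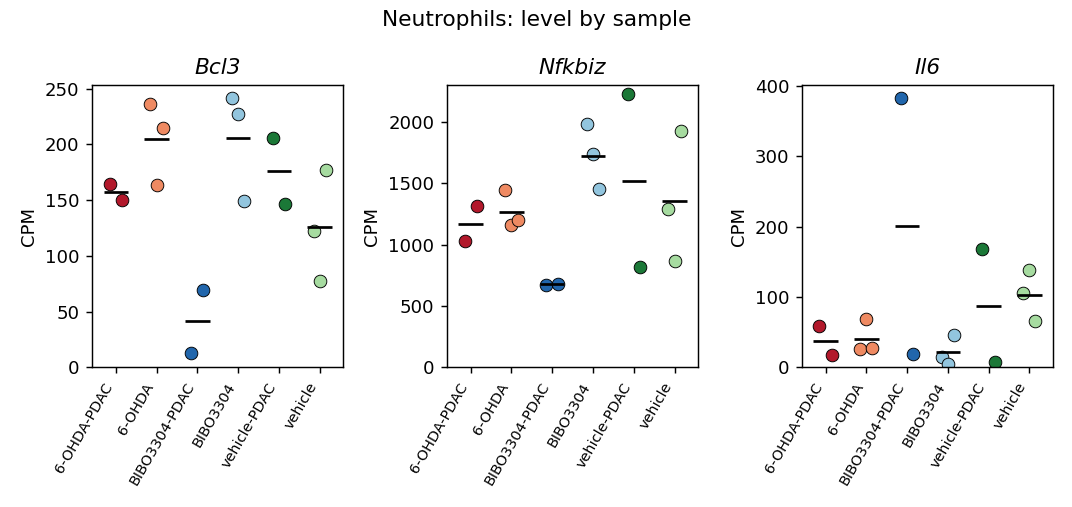
Level of Bcl3, Nfkbiz and Il6 in neutrophils, in CPM, with 1 point per sample and a line at the group mean. The BIBO3304-PDAC samples are the lowest for Bcl3 and Nfkbiz, while Il6 is set by 1 BIBO3304-PDAC sample at 383 CPM.

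For the drugs without PDAC cells no member was called. For 6-OHDA against vehicle, 0.0669% of all tests were called by edgeR, 14 of the 132 member tests had an unadjusted p under 0.05, and DESeq2 called 0. Nfkbia had a log2 change below 0 in 19 of 19 types, with a median of -0.42. In dendritic cells it had 529.6, 466 and 799.5 CPM in 6-OHDA samples, against 1149, 673 and 1098 CPM in vehicle samples, with overlap (log2 change -0.86 ± 0.25 (SE), adjusted p = 0.125, edgeR), and it was called there without 6-OHDA 3 (-1.13, 0.0377). It also had -0.42 in alveolar fibroblasts (edgeR adjusted p = 0.54) and -0.29 in alveolar macrophages (0.412). Bcl3 in aerocyte capillary cells (1.20, 0.677) and Il6 in alveolar macrophages (-1.14, 0.397) complete the 5 smallest p.

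For BIBO3304 against vehicle without PDAC cells, 35 of 132 member tests had an unadjusted p under 0.05. The share of all genes at that level is not given here. At the adjusted threshold edgeR called 0.307% of all tests, and DESeq2 called 1 member test. That call was Nfkbia in alveolar fibroblasts (-0.57, adjusted p = 0.0235), where it had 210.0, 147 and 171 CPM in BIBO3304 samples, against 247, 284 and 295 CPM in vehicle samples. All BIBO3304 values were below all vehicle values, and edgeR gave -0.58 ± 0.15 (SE), adjusted p = 0.0707. Alveolar type 2 cells had 81.8, 59.5 and 93.6 CPM in BIBO3304 samples, against 144, 134 and 159 CPM in vehicle samples, also without overlap (log2 change -0.86 ± 0.24 (SE), adjusted p = 0.0639, edgeR), and were called with the sample number as a block (-0.88, 0.0444). General capillary cells had 197, 213 and 184 CPM in BIBO3304 samples, against 287, 269 and 297 CPM in vehicle samples (log2 change -0.53 ± 0.13 (SE), adjusted p = 0.22, edgeR). Il6 in interstitial macrophages (-1.30, 0.142) and Nfkb1 in mesothelial cells (-1.0, 0.284) had the next smallest p. Il1b had a log2 change below 0 in 16 of 19 types, with 10 at an unadjusted p under 0.05. The comparisons of BIBO3304 with vehicle and of BIBO3304-PDAC with BIBO3304 share the BIBO3304 samples, BIBO3304 2 among them.

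With PDAC cells, 6-OHDA against vehicle had 86 of 123 member log2 changes below 0, with a median of -0.25 and -0.01 over all genes. Besides the Bcl3 call, Nfkbia in alveolar macrophages had 311 and 346 CPM in 6-OHDA-PDAC samples, against 494 and 438 CPM in vehicle-PDAC samples and no overlap, but did not pass in edgeR (-0.67 ± 0.14 (SE), adjusted p = 0.229), while DESeq2 called it (0.00492). Tnfaip3 in adventitial fibroblasts had -0.84 (edgeR adjusted p = 0.647). Without vehicle-PDAC 2 these were -0.65 (0.346) for Nfkbia and -1.14 (0.340) for Tnfaip3, and Tnfaip3 in dendritic cells was also called (-1.17, 0.0485), by edgeR.

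BIBO3304 against vehicle with PDAC cells had no member call, where 0.0317% of all tests were called by edgeR; 22 of 132 member tests had an unadjusted p under 0.05, and DESeq2 called 4. The 4 were Nfkbia (-0.60, 0.00294), Nfkbiz (-0.70, 0.0161) and Tnf (-0.58, 0.0441) in alveolar macrophages and Tnfaip3 in interstitial macrophages (-0.90, 0.0299). In alveolar macrophages Nfkbia had 281 and 365 CPM in BIBO3304-PDAC samples, against 494 and 438 CPM in vehicle-PDAC samples, and Nfkbiz 106 and 131 CPM in BIBO3304-PDAC samples, against 206 and 163 CPM in vehicle-PDAC samples. Neither overlapped, and edgeR gave adjusted p-values of 0.29 and 0.349. Bcl3 in neutrophils (-1.98, edgeR adjusted p = 0.112), Tnfaip3 in adventitial fibroblasts (-1.08, 0.493) and in interstitial macrophages (-0.89, 0.159) were also among the 5 smallest p. Without vehicle-PDAC 2, edgeR gave -0.57 (0.0798) for Nfkbia and -0.75 (0.0688) for Nfkbiz in alveolar macrophages and -0.86 (0.314) for Tnfaip3 in interstitial macrophages, and called Nfkbiz in neutrophils (-1.42, 0.0469).

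The 6-OHDA interaction had no member call by edgeR or by DESeq2, where 0.00744% of all tests were called by edgeR, and 12 of 123 member tests had an unadjusted p under 0.05. The smallest p were for Tnf in alveolar macrophages (-0.76, edgeR adjusted p = 0.975), Bcl3 (-1.83, 0.938) and Nfkbiz (-0.79, 0.938) in aerocyte capillary cells, Bcl3 in interstitial macrophages and Nfkb1 in peribronchial fibroblasts (1.07, 0.907). Without vehicle-PDAC 2 edgeR again called no member in it, and 28 of the 123 log2 differences changed sign. For the other tests under vehicle, alveolar macrophages with PDAC cells had Nfkbiz 0.64 (edgeR adjusted p = 0.441), Tnf 0.55 (0.491) and Nfkbia 0.41 (0.55). Nfkb1 in alveolar fibroblasts had 1514 and 505 CPM in vehicle-PDAC samples, against 686, 402 and 731 CPM in vehicle samples (log2 change 0.87 ± 0.27 (SE), adjusted p = 0.346, edgeR). Its vehicle-PDAC samples lay on both sides of the vehicle samples' middle value, and without vehicle-PDAC 2 it was called (1.40, 0.00616).

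Some genes of each of 6 further pathway lists fell in interstitial macrophages of PDAC-seeded 6-OHDA lungs, where 6.88% of all genes were called lower. Among 17 tested further inhibitors and feedback genes there, 5 were called lower and none higher. Tnip3, which encodes a partner of A20, had 349.8 ± 48.9 CPM in 6-OHDA-PDAC samples (SD, n = 2) and 1503 ± 399 CPM in 6-OHDA samples (SD, n = 3), a log2 change of -2.11 ± 0.31 (SE), adjusted p = 0.000225 (edgeR). Birc3, a ubiquitin ligase of the receptor complex (-1.36), Nfkbib, another cytoplasmic inhibitor (-1.06), and Socs3, a brake on STAT3 signalling (-1.04), were called too. Of 16 inducible targets 6 were called lower, among them the chemokine genes Cxcl1 (-1.97) and Ccl2 (-1.05) and Selp (-2.70), the endothelial and platelet adhesion gene P-selectin. Of 8 subunit and kinase genes 2 were called lower, the subunits Relb (-0.96) and Rela (-0.97). Of 9 genes of the receptor list, the antagonist gene Il1rn among them, 3 were called lower, the interleukin-1 receptor genes Il1r1 (-2.12) and Il1rap (-1.33) and Lifr (-1.62). The list's 1 gene called higher was Il1r2, a decoy receptor of interleukin-1 (1.18, edgeR adjusted p = 0.0477), which was named after its values were seen. Of 6 STAT3 response genes Stat3 (-1.05) and Socs3 were called lower. The list of genes known to respond to tissue dissociation moved the same way, with 5 of 18 called lower, among them Atf3 (-1.29), Klf6 (-1.23), Egr1 (-1.30) and Jun (-0.99). The 5 large-vessel endothelial markers, among them Selp, summed in these macrophages to 12 to 24.9 CPM in 6-OHDA-PDAC and 71.1 to 116 CPM in 6-OHDA samples (Slc6a2 at 0 in the 6-OHDA samples). The part of dissociation and of other cell types' RNA was not tested.

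With PDAC cells under BIBO3304, interstitial macrophages had 6 of the further inhibitors lower, among them Birc3 (-1.85), Socs3 (-1.95) and Tnip3 (-2.04). They also had Relb (-1.03), Nfkb2 (-0.84) and Stat3 (-1.42) lower and Map3k7, a kinase upstream of NF-kB, higher (0.91). Of the 18 dissociation genes 9 were called lower there, where 11.2% of all genes were, Dusp1 (-1.66) and Atf3 (-1.44) among them. Of the 16 inducible targets there, 2 were called higher and 4 lower, with a median log2 change of -0.61 against 0.03 over all genes. Over all types the inducible targets had 20 calls higher and 5 lower of 198 tests, where 4.25% of all tests were called, with a median of 0.38 against -0.01 over all genes. Cxcl1 in alveolar fibroblasts had 145 ± 15.9 CPM in BIBO3304-PDAC samples (SD, n = 2) and 49.3 ± 16 CPM in BIBO3304 samples (SD, n = 3), a log2 change of 1.58 ± 0.18 (SE), adjusted p = 0.000197 (edgeR). Ptgs2, the inducible prostaglandin synthase, was called higher in general capillary cells (3.25) and peribronchial fibroblasts (3.43). The STAT3 response list had 11 higher and 3 lower of 93 tests, with Junb higher in alveolar (1.07) and adventitial fibroblasts (1.08). The dissociation list had 29 higher and 13 lower of 332 tests, in 15 types, so it moved with the targets; its part was not tested. Subunits and kinases had 1 higher and 3 lower of 138, further inhibitors 5 and 8 of 237, and receptors 1 and 4 of 138, among them Tnfrsf1b in monocytes (-1.10), a receptor of tumour necrosis factor. Socs3, Junb, Ier3 and Zfp36 stand in more than one list.

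Without PDAC cells, BIBO3304 against vehicle had Cxcl1 lower in alveolar fibroblasts (-0.80), Ier3 lower in alveolar fibroblasts and aerocyte capillary cells (-1.06 and -0.91), and Junb in both types and Osm in alveolar fibroblasts, all 3 of the STAT3 response calls, lower. The dissociation list had 12 lower and none higher of 332 tests there, where 0.307% of all tests were called. 6-OHDA against vehicle had Il1rap, the shared interleukin-1 receptor chain, higher in dendritic cells (1.39). It had 3 of 332 dissociation tests higher, where 0.0669% of all tests were called. With PDAC cells, 6-OHDA against vehicle had 5 further inhibitors lower, all in interstitial macrophages, among them Tnip3 (-2.06). It also had 2 targets and 3 receptor tests lower, among them Il1r1 (-2.64), and Socs3 lower. Of 296 dissociation tests there, 5 were higher and 2 lower, where 0.405% of all tests were called. In the interactions, Il1rap in dendritic cells was the single list call for 6-OHDA (-3.26). For BIBO3304, Socs3 in interstitial macrophages was called lower (-1.58), and Junb in alveolar fibroblasts (1.46), Osm (3.27) and Lifr (2.93) in B cells and Bcl2a1d in alveolar fibroblasts (3.05) higher, as were, from the dissociation list, Ier2 in alveolar fibroblasts (1.33) and Jund in B cells (1.94). Under vehicle, and for BIBO3304 against vehicle with PDAC cells, no gene of the 6 lists was called by edgeR; the tests with an unadjusted p under 0.05 numbered 5 to 40 per list under vehicle and 9 to 53 for BIBO3304, and DESeq2 called 2 tests under vehicle, both of inducible targets, and 0 to 5 per list for BIBO3304.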

How the data were processed

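The authors dissociated whole lungs, sorted live cells and made split-pool barcoded single-cell libraries with Evercode chemistry, primed by oligo(dT) and random hexamers, in 16 sublibraries, per the labels. The submitters' processing notes name the mouse build mm39 and Seurat 5.3.0; an aligner, counting settings or cell filters were not given in the sources used here. In the authors' files, the deposited matrix holds raw counts per gene and cell, and 99.04% of cells had the same total as the deposited table. The deposited cell table also gives each cell's group, its type and, as percent, its mitochondrial transcripts, by the authors; no further filter on cells and no doublet caller was applied. The members and lists were chosen with earlier results of these data known.

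Counts were summed per sample and annotated type, keeping sums of at least 20 cells and types with at least 2 samples per group. R 4.3.3 with edgeR 4.0.16 fitted all 6 groups together for each type (filterByExpr, TMM, quasi-likelihood), with Benjamini-Hochberg adjustment over all genes of a type and comparison and a threshold of 0.05. Alternatives were DESeq2 1.42.0, RLE scaling, no filter, a minimum of 50 cells, only the groups compared, sample number as a block and leaving out each sample; 2 more, removing each member's highest cell and leaving out TMM, were chosen after seeing the data. The fit was tested on simulated data. All member calls were named, or the 5 smallest p where fewer passed, and for each list up to 4 genes with the smallest p. Levels were compared with Python 3.11.15 and scipy 1.17.1. Precision is limited by 2 or 3 samples per group. No column of other samples was present.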

Additional observations from a re-analysis of the deposited data

Results flagged for a closer look

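The effect of BIBO3304 on Bcl3 in neutrophils differed between lungs with and without PDAC cells by -2.62 on the log2 scale in a test of the difference itself (edgeR, adjusted p = 0.0367). It rests on 8 transcripts in the 100 neutrophils of BIBO3304-PDAC samples and 109 in the 264 neutrophils of BIBO3304 samples. The call was made in 4 of the 10 fits that left out a sample and in 5 of 7 other alternatives.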

How the results depend on the processing

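Of 768 refits of the named member tests, 654 kept direction and side of the threshold, 77 lost a call, 36 gained one and 1 turned round: Il6 in neutrophils without BIBO3304-PDAC 1 (-0.064, and up to 4.69 without the other samples in turn). Of 762 refits of the list counts, 522 stayed within 1.5 times. Counts of member calls moved by more than 1.5 times as follows, and the cause was not tested. The share of all tests called is not given for any refit, those that left out a sample included. A change over all genes therefore cannot be told apart from a change of the members. With no filter on low counts they were 1 for 6-OHDA and 13 for BIBO3304 against vehicle without PDAC cells, 4 and 26 for PDAC cells under vehicle and under BIBO3304, 4 and 5 for 6-OHDA and BIBO3304 against vehicle with PDAC cells, and 15 for the BIBO3304 interaction. DESeq2 gave 1 for BIBO3304 without PDAC cells, 1 for PDAC cells under vehicle, 4 for 6-OHDA with PDAC cells (3 in interstitial macrophages), 4 for BIBO3304 with PDAC cells and 3 for the BIBO3304 interaction. RLE scaling gave 2 for 6-OHDA with PDAC cells, both in interstitial macrophages. Fitting only the groups compared gave 2 for BIBO3304 without and 2 for 6-OHDA with PDAC cells and 0 for the BIBO3304 interaction. A minimum of 50 cells also left 0 for that interaction. BIBO3304-PDAC 1 has 33 neutrophils, so the Bcl3 test in neutrophils could not be run there. Without each member's highest cell there were 1 for 6-OHDA without PDAC cells and 2 with them, both of those in interstitial macrophages. Without TMM there were 2 for BIBO3304 without PDAC cells, 2 for PDAC cells under 6-OHDA, both in interstitial macrophages, and 0 for 6-OHDA with PDAC cells, interstitial macrophages included.

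Leaving out each sample in turn gave 0 to 1 calls for 6-OHDA and 0 to 3 for BIBO3304 against vehicle without PDAC cells, 0 to 2 for PDAC cells under vehicle, 2 to 5 under 6-OHDA (2 to 5 in interstitial macrophages) and 5 to 15 under BIBO3304 (3 to 5 in interstitial macrophages). It gave 0 to 3 for 6-OHDA (0 to 3 in interstitial macrophages) and 0 to 1 for BIBO3304 with PDAC cells, and 0 to 13 for the BIBO3304 interaction. Among the highest cell types, Nfkb1 turned to -0.0067 with a minimum of 50 cells and was separated on TMM-scaled CPM (0.38), which also left Nfkbia at 0.20 without passing and turned Tnfaip3 to -0.15.

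Sample numbers recur across groups. Over 33 pairs with the same number, the correlation of deviations from group means ran from -0.404 to 0.41 with a median of -0.042, and 13 exceeded 0.1, so the numbers were not taken to pair samples. With the number as a replicate block there were 1 call for BIBO3304 without PDAC cells, 4 for PDAC cells under 6-OHDA, 14 under BIBO3304, 1 for 6-OHDA with PDAC cells and 1 for the BIBO3304 interaction. Depth limits Lif, Il6 outside fibroblasts, and all genes in types with few cells.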

Other observations

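Over whole samples, all cell types summed, Tnf had 31.5 to 35.1 CPM in 6-OHDA-PDAC and 58.0 to 62.4 CPM in 6-OHDA samples. The other pairs lay the opposite way, with 41.8 to 68.1 CPM in BIBO3304-PDAC and 28.4 to 41.5 CPM in BIBO3304 samples. Tnf in vehicle-PDAC samples had 81.0 to 87.1 CPM, against 50.9 to 75.9 CPM in vehicle samples. No pair overlapped for Tnf. Il1a had 39.3 to 43.4 CPM in 6-OHDA-PDAC and 73.1 to 85.4 CPM in 6-OHDA samples, without overlap. It overlapped in the other pairs, at 41.9 to 68.4 CPM in BIBO3304-PDAC and 44.7 to 122 CPM in BIBO3304 samples. The vehicle-PDAC samples had 123 to 130.3 CPM of Il1a, against 46.8 to 143 CPM in vehicle samples. Nfkbiz had 284 to 336 CPM in BIBO3304-PDAC and 382 to 600.1 CPM in BIBO3304 samples, without overlap. It overlapped at 366 to 533 CPM in 6-OHDA-PDAC and 438 to 485 CPM in 6-OHDA samples, and at 268 to 423 CPM in vehicle-PDAC and 248 to 425 CPM in vehicle samples. Bcl3 had 24.9 to 28.5 CPM in BIBO3304-PDAC and 39.4 to 51.5 CPM in BIBO3304 samples, without overlap. Il1b had 235 to 294 CPM in 6-OHDA-PDAC and 175 to 231 CPM in 6-OHDA samples, without overlap. Lif was also higher in 6-OHDA-PDAC than in 6-OHDA samples without overlap. All other pairs of the 10 members overlapped. With so few samples per group, a lack of overlap can arise by chance. The share of all genes without overlap in the same pairs is not given here, so these values do not set the members apart from other genes. No test was run on these values. In whole samples a change in the share of cell types and a change of RNA per cell cannot be told apart.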
